A study of Mus musculus with 8 samples.

Results

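The 10 genes described here, Saa1, Saa2, Saa3, Saa4, Orm1, Orm2, Hp, Hpx, Lcn2 and Crp, encode plasma proteins of the acute phase response. They were chosen by gene symbol out of the 46517 genes of a liver RNA-Seq count table, and all 10 were found and passed the filter on low counts. Livers came from 4 MøFoxO1-KO mice (KO26 to KO29) and 4 WT littermates (WT22 to WT25), all male and C57BL/6. Both genotypes carried loxP-flanked FoxO1 alleles, and the MøFoxO1-KO mice in addition carried Cre under the myeloid Lyz2 promoter, so that FoxO1 was targeted in macrophages and other myeloid cells and not in hepatocytes. All mice ate a NASH-inducing diet for 25 weeks from the age of 6 weeks and were killed at 31 weeks after a 16-h fast. The comparison asks whether loss of FoxO1 in myeloid cells goes with a different liver acute phase program in diet-induced steatohepatitis.

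In the acute phase response, macrophages release IL-1, IL-6 and TNF, and these cytokines act on hepatocytes through NF-κB, STAT3 and C/EBP factors to raise the transcription of a set of secreted proteins. Serum amyloid A proteins are small apolipoproteins of HDL, orosomucoids (α1-acid glycoproteins) bind drugs and lipids, haptoglobin and hemopexin capture free hemoglobin and heme, lipocalin 2 withholds iron-loaded siderophores from bacteria, and C-reactive protein binds phosphocholine. In mice, SAA1 and SAA2 are among the strongly induced proteins, whereas CRP is only weakly inducible.

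Livers of MøFoxO1-KO mice had on average more Orm1, Hp and Hpx mRNA and less Lcn2 mRNA than livers of WT littermates, but none of these differences passed the test across all genes. Orm1 was 2.26-fold, Hpx 1.52-fold and Hp 1.37-fold the WT mean, and Lcn2 was 0.311 of it. The serum amyloid A genes, Orm2 and Crp differed between genotypes by less than the spread between mice. Calls needed both an adjusted P below 0.05 (edgeR quasi-likelihood test, Benjamini-Hochberg over 13278 tested genes) and a log2 fold change beyond 1.5 in either direction. By that rule 0 of the 10 genes were called, beside 0.188% of all tested genes, and at an adjusted P under 0.05 alone it was again 0 of 10, beside 0.294% of all tested genes. DESeq2 also called 0 of the 10. At an unadjusted P under 0.05, 4 of the 10 passed, 3 higher and 1 lower in MøFoxO1-KO mice, and the background over all tested genes was 16.7% (8.65% higher and 8.06% lower). These P values set the difference between genotypes against the spread between these 8 mice, and edgeR estimates that spread with help from other genes.

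Total counts were 15253218 to 18025481 per liver, and the 10 genes together took 0.803 to 1.53% of them, with 1.05% or less in each WT liver and the highest shares in KO27 (1.33%) and KO29 (1.53%). WT23 stood somewhat apart from its group: a chi-square per gene of 69.0 to 99.9 separated it from the other WT mice, beside 29.9 to 55.9 for the 9 other pairs of one genotype. Summed hepatocyte markers overlapped between groups, at 69993 to 88432 CPM (counts scaled to library size) in WT and 68868 to 85665 CPM in MøFoxO1-KO mice. Summed macrophage markers were 257 to 535 CPM in WT and 312 to 1269 CPM in MøFoxO1-KO mice, highest in KO29 and next in KO27. Of the 12 macrophage markers 11 had a fitted log2 fold change above 0, beside 48.3% of all tested genes. An unadjusted P under 0.05 was reached by 7, all higher, beside 16.7% of all tested genes. The lower marker was Lyz2, whose promoter drives Cre, at 73.4 ± 38.1 TPM (transcripts scaled for length and depth) in WT and 33.8 ± 32.9 TPM in MøFoxO1-KO livers (SD, n = 4 each). Lyz2 is part of the macrophage sums, and the part of the Cre allele in its level was not tested. In bulk liver, fewer cells of a type and less RNA per cell cannot be told apart. Foxo1 itself, counted over all its exons, was at 404 ± 73.9 normalized counts in WT and 359 ± 73.4 in MøFoxO1-KO livers (SD, n = 4 each; log2 fold change -0.17, SE 0.18, adjusted P = 0.686 with edgeR). Normalized counts are counts divided by TMM-scaled library sizes and brought to one common depth.

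**Figure D1:**
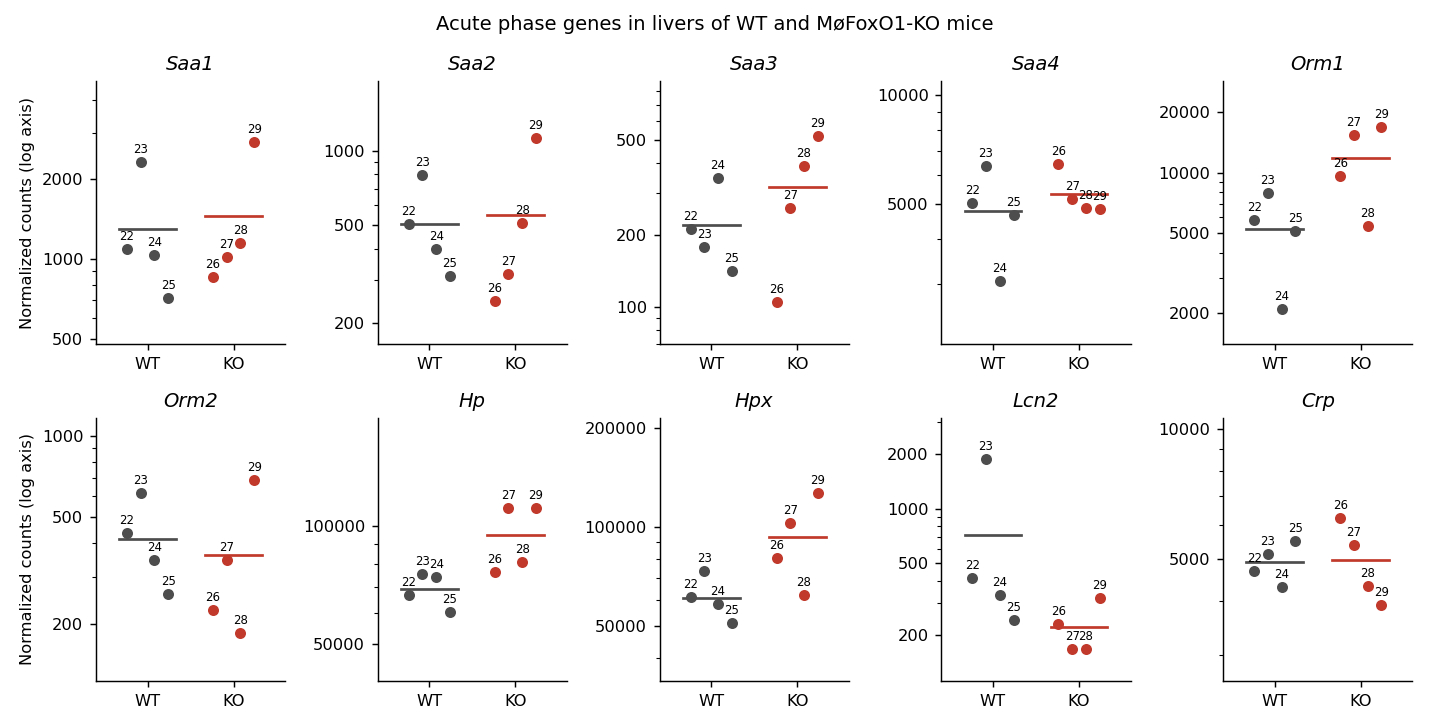
Normalized counts of the 10 genes in each liver (points; log axis on a scale of its own in each panel), WT on the left and MøFoxO1-KO on the right of each panel, with lines at the group means and the number of each mouse. Orm1, Hp and Hpx lie higher in MøFoxO1-KO livers on average, with no overlap for Hp alone, and the WT mean of Lcn2 is carried by the single WT liver at 1873.

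Serum amyloid A genes lie in one cluster on chromosome 7 (GRCm38): Saa3 at chr7:46711998-46715676 and Saa4 at chr7:46728017-46732543 on the minus strand, Saa1 at chr7:46740501-46742980 on the minus strand, and Saa2 at chr7:46751833-46754314 on the plus strand. Saa1 and Saa2 are transcribed away from each other, and their longest open reading frames, 369 bases each, were 95.1% identical. Saa3, the form that macrophages and adipocytes also make, was 76.1% identical to Saa1, and Saa4, the constitutive form, 65.2%. The 250 bases before the transcription start are shown for Saa1 (chr7:46742981-46743230, minus strand), Saa2 (chr7:46751583-46751832, plus strand) and Saa3 (chr7:46715677-46715926, minus strand), because Saa1 and Saa2 varied together between mice. They are RefSeq windows on GRCm38.p6, read 5′ to 3′ along the gene's strand, and the capitals mark the letters TTGCNNAA on either strand, a form of the C/EBP motif.
Saa1: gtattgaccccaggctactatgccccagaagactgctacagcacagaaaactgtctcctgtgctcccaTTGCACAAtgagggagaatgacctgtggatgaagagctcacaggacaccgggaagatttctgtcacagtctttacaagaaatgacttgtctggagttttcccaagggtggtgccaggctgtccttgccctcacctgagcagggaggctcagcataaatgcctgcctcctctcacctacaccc
Saa2: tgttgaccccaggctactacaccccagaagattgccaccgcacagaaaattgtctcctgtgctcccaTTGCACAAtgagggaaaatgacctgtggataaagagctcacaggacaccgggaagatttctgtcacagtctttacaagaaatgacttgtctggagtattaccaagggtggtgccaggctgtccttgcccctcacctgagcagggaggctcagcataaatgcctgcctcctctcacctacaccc
Saa3: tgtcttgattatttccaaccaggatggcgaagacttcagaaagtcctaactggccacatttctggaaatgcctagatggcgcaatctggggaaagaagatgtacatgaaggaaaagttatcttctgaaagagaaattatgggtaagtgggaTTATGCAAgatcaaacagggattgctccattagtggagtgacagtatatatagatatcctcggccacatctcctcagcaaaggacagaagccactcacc

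Saa1 and Saa2 windows, with the first 50 transcribed bases included, were 95.3% identical, and Saa1 and Saa3 windows 50.9%. RefSeq windows were matched for 8 of the 10 genes (not for Orm1 and Hp), and 7 of these 8, all but Crp, held TTGCNNAA. That letter string occurred in 10.8% of 32851 windows of the same length across the genome. None of the 8 held TTCNNNGAA or TTCCNGGAA (STAT; in 8.30% and 1.15% of all windows), the NF-κB motif (1.63%), the HNF1 motif (0.00913%) or TGTTTAC (FOXO; 3.65%), where each was searched on both strands. The windows of Saa1 and Saa2 are near copies of each other, so that their matches are not separate observations.

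Saa1 was at 1089, 2332, 1037 and 715 normalized counts in WT22 to WT25 and at 858, 1018, 1153 and 2771 in KO26 to KO29. The groups overlapped fully, and 1 mouse in each, WT23 and KO29, held more than the other 3. The fitted log2 fold change was 0.16 (SE 0.43, 95% interval -0.79 to 1.12, edgeR adjusted P = 0.883), and it was -0.36 without KO29 and 0.61 without WT23.

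Saa2 showed the same pair of high mice. It was at 505, 795, 399 and 312 normalized counts in WT22 to WT25 and at 246, 316, 510 and 1125 in KO26 to KO29. The log2 fold change was 0.13 (SE 0.45, 95% interval -0.88 to 1.13, edgeR adjusted P = 0.915), -0.49 without KO29, and -0.01 when libraries were scaled by total counts. Because reads of near-identical copies can be split or lost in counting, Saa1 and Saa2 were also summed, which gave 0.15 (SE 0.43, adjusted P = 0.889).

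Saa3 was at 212, 177, 345 and 141 normalized counts in WT22 to WT25 and at 104, 258, 387 and 518 in KO26 to KO29. KO28 and KO29 were above all WT livers and KO26 was below them. The log2 fold change was 0.53 (SE 0.43, 95% interval -0.42 to 1.49, edgeR adjusted P = 0.575), and it was 0.19 without KO29. Summed macrophage markers were highest in KO29 (1269 CPM), next in KO27 (792 CPM) and lowest among MøFoxO1-KO livers in KO28 (312 CPM), and their part in the Saa3 level was not tested. Summed adipocyte markers were 29.1 to 164 CPM in WT livers and 17.9, 16.6, 289 and 11.1 CPM in KO26 to KO29. KO28, the second highest liver for Saa3, was thus the highest for this sum, mostly through Cfd (547 TPM in KO28 and 0 to 1.25 TPM in the other MøFoxO1-KO livers), while KO29, the highest for Saa3, was the lowest. Of the other markers Adipoq, Plin1, Lep and Retn were at 0 to 3 raw counts in every liver, and the part of adipocytes in the Saa3 level was not tested.

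Saa4 was at 5021, 6373, 3062 and 4647 normalized counts in WT22 to WT25 and at 6444, 5168, 4867 and 4844 in KO26 to KO29. Means were 4776 ± 1362 and 5331 ± 757 (SD, n = 4 each), and the lowest liver was WT24. The log2 fold change was 0.16 (SE 0.21, 95% interval -0.30 to 0.62, edgeR adjusted P = 0.745).

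The orosomucoid genes lie side by side on the plus strand of chromosome 4 (GRCm38), with Orm1 at chr4:63344560-63348163, Orm3 at chr4:63356162-63359511 and Orm2 at chr4:63362449-63365878. Open reading frames of Orm1 and Orm2, 624 bases each, were 89.9% identical, and 20.4% of the 50-base stretches of Orm1 also occurred in Orm2. For Orm2 the 250 bases before the start (chr4:63362199-63362448, plus strand, RefSeq, GRCm38.p6) are shown, since its fitted change had the opposite sign to that of its neighbor Orm1, and the capitals again mark TTGCNNAA, here a palindrome matching on both strands.
Orm2: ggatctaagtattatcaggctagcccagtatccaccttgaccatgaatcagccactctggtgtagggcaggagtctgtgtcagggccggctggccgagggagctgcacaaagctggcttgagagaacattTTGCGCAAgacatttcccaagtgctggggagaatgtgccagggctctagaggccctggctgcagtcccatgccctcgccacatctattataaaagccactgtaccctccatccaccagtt

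Orm1, the most abundant orosomucoid, had the largest positive log2 fold change of the 10 genes. It was at 5812, 7894, 2112 and 5111 normalized counts in WT22 to WT25 and at 9635, 15450, 5454 and 16746 in KO26 to KO29. KO26, KO27 and KO29 were above every WT liver, and KO28 lay within the WT range. The means of 5232 ± 2393 and 11821 ± 5252 (SD, n = 4 each) gave a log2 fold change of 1.18 (SE 0.42, 95% interval 0.24 to 2.11), with P = 0.0183 and an adjusted P of 0.215 in edgeR, and an exact two-sided permutation P of 0.0857. It lay between 0.91 (without WT24) and 1.44 (without WT23) when each mouse was left out in turn, and adjusted P values over all alternatives were 0.0563 to 0.467. KO27 and KO29, the highest livers for Orm1, also had the highest summed macrophage markers (792 and 1269 CPM), and the part of these in the Orm1 level was not tested. The share of mitochondrial counts was lowest in the same livers (4.16% in KO27 and 4.72% in KO29) and highest in KO28 (6.33%), beside 5.14% in KO26 and 5.19 to 5.75% in WT livers, and its part in the Orm1 and Hpx levels was not tested either.

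Orm2, at a much lower level, did not share this difference. It was at 438, 613, 348 and 260 normalized counts in WT22 to WT25 and at 226, 348, 185 and 688 in KO26 to KO29. KO26 and KO28 were below all WT livers and KO29 above them. The log2 fold change was -0.20 (SE 0.40, 95% interval -1.09 to 0.69, edgeR adjusted P = 0.839), and it was 0.05 without WT23. Orm3, the orosomucoid gene between them and not among the 10, was at 211 ± 145 in WT and 89.2 ± 26.5 in MøFoxO1-KO livers (SD, n = 4 each), with a log2 fold change of -1.24 (SE 0.60, edgeR adjusted P = 0.335). Because the difference in sign between neighboring copies was seen in the data, the ratio of their raw counts, which needs no scaling between libraries, was computed afterwards. Counts of Orm1 per count of Orm2 were 13.3, 12.9, 6.07 and 19.7 in WT22 to WT25 and 42.6, 44.5, 29.5 and 24.3 in KO26 to KO29. The groups did not overlap, and the exact two-sided permutation P was 0.0286, the smallest that 4 against 4 mice allow, or 0.0571 after Benjamini-Hochberg adjustment over 4 ratios. Against Orm2 and Orm3 together, the ratio was 8.29 ± 2.11 in WT and 26.9 ± 6.97 in MøFoxO1-KO livers (SD, n = 4 each), without overlap and with the same P values. Both ratios share the counts of Orm1 and Orm2, so that they are not separate observations. Their P values do not account for the choice of the ratios after the values were seen. Reads shared by these copies make the split between them uncertain, and with all 3 copies summed the log2 fold change was 1.07 (SE 0.41, adjusted P = 0.241 in edgeR). Orm1 made up most of this sum in every liver (in WT24 2288 raw counts, beside 377 of Orm2 and 25 of Orm3), so that the sum cannot test the split.

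**Figure D2:**
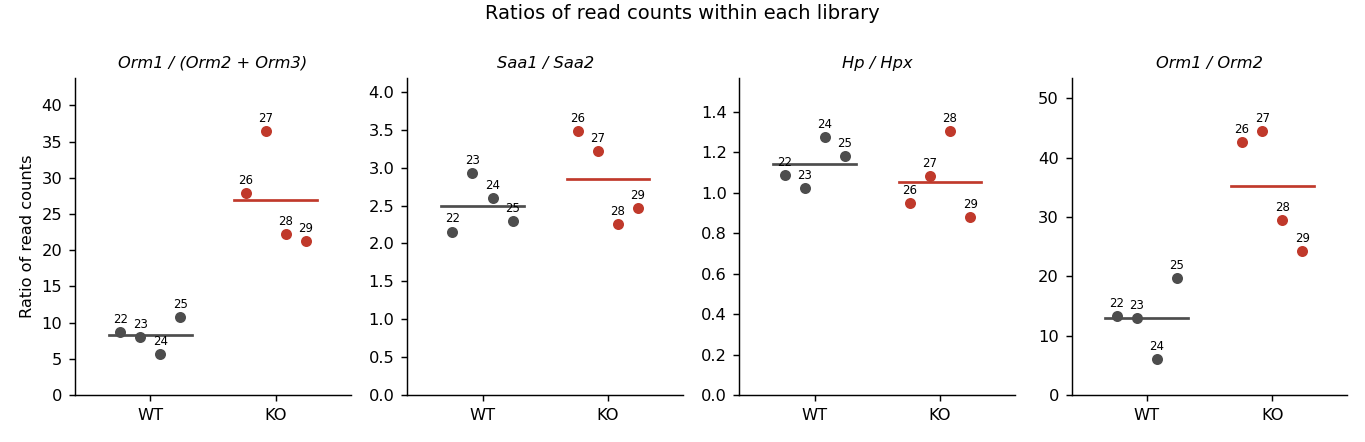
Ratios of raw read counts within each liver (points, linear axes from 0), WT on the left and MøFoxO1-KO on the right of each panel, with lines at the group means. Orm1 relative to Orm2 and Orm3 lies at 21.2 or more in every MøFoxO1-KO liver and at 10.8 or less in every WT liver, whereas Saa1 to Saa2 and Hp to Hpx overlap.

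Saa1 to Saa2 ratios were 2.50 ± 0.345 in WT and 2.86 ± 0.585 in MøFoxO1-KO livers (SD, n = 4 each; exact two-sided permutation P = 0.343, adjusted 0.429). Hp to Hpx ratios were 1.14 ± 0.110 and 1.05 ± 0.187 (SD, n = 4 each; exact two-sided permutation P = 0.429, adjusted 0.429).

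Haptoglobin and hemopexin, the scavengers of hemoglobin and heme, were the most abundant of the 10 transcripts. Hp (chr8:109575130-109579172, minus strand, GRCm38) was at 66702, 75431, 74206 and 60283 normalized counts in WT22 to WT25 and at 76251, 111037, 80998 and 111488 in KO26 to KO29. Every MøFoxO1-KO liver was above every WT liver, although KO26 exceeded the highest WT liver only slightly. Hp was the only 1 of the 10 genes whose groups did not overlap, beside 9.71% of all tested genes, and every MøFoxO1-KO mouse was above every WT mouse in 5.00% and below in 4.71% of them. Its means of 69155 ± 7062 and 94944 ± 18944 (SD, n = 4 each) gave a log2 fold change of 0.46 (SE 0.17, 95% interval 0.07 to 0.85), with P = 0.0255 and an adjusted P of 0.237 in edgeR, and an exact two-sided permutation P of 0.0286. When libraries were scaled by total counts, the groups overlapped and the log2 fold change was 0.29 (edgeR adjusted P = 0.311; 0.0913 to 0.507 over all alternatives).

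Hpx (chr7:105591613-105600116, minus strand, GRCm38) was at 61256, 73647, 58122 and 50985 normalized counts in WT22 to WT25 and at 80390, 102687, 62053 and 126614 in KO26 to KO29. As for Orm1, only KO28 lay within the WT range. The log2 fold change was 0.61 (SE 0.23, 95% interval 0.11 to 1.11), with P = 0.0224 and an adjusted P of 0.227 in edgeR, and an exact two-sided permutation P of 0.0571. By total counts it was 0.45 (edgeR adjusted P = 0.227; 0.0938 to 0.471 over all alternatives).

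Lcn2 (chr2:32384633-32388252, minus strand, GRCm38), whose protein is made by stressed hepatocytes and stored in neutrophil granules, was the member lower in MøFoxO1-KO livers with an unadjusted P under 0.05. The 250 bases before its RefSeq start (chr2:32387740-32387989, minus strand, GRCm38.p6) are shown as the counterpart to the serum amyloid A windows, and the capitals mark TTGCNNAA. This start lies inside the gene span of the count table, which holds longer transcripts.
Lcn2: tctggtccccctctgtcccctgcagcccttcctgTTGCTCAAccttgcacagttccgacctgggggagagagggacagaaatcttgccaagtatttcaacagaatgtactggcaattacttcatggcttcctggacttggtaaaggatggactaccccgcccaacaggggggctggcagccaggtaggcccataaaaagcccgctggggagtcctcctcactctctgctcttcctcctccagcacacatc

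Lcn2 was at 413, 1873, 331 and 242 normalized counts in WT22 to WT25 and at 231, 167, 168 and 322 in KO26 to KO29. WT23 stood far above all other livers, and KO29 overlapped with the WT range. The means of 715 ± 775 and 222 ± 73.2 (SD, n = 4 each) gave a log2 fold change of -1.69 (SE 0.60, 95% interval -3.02 to -0.35), with P = 0.0184 and an adjusted P of 0.215 in edgeR, and an exact two-sided permutation P of 0.0571. Without WT23 it was -0.57 (edgeR adjusted P = 0.396; 0.125 to 0.467 over all alternatives), so that most of the fitted difference on the log2 scale rested on 1 liver. Summed neutrophil markers were low in all livers, 4.37 to 11.5 CPM in WT and 2.55 to 9.12 CPM in MøFoxO1-KO mice, and WT23 had 4.51 CPM. Of the 9 neutrophil markers too low to test, 8 were at 0 to 6 raw counts throughout, and the granule protease gene Elane was at 0, 21, 3 and 1 raw counts in WT22 to WT25 and at 4, 7, 14 and 1 in KO26 to KO29. Elane was thus highest in WT23, the liver with the highest Lcn2. The neutrophil markers Csf3r (22.6 normalized counts) and S100a9 (1.25 TPM) were instead lowest in WT23 among WT livers. S100a8 (4.13 TPM in WT23) was second to WT24 among them. The part of neutrophils in the Lcn2 level was not tested. Summed cholangiocyte markers were 79.5 to 112 CPM in WT and 58.5 to 83.6 CPM in MøFoxO1-KO mice, with WT23 the lowest WT liver.

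Crp (chr1:172698055-172833031, plus strand, GRCm38) had nearly the same mean in both genotypes. It was at 4702, 5150, 4304 and 5508 normalized counts in WT22 to WT25 and at 6238, 5391, 4341 and 3926 in KO26 to KO29. The highest and the lowest liver were both MøFoxO1-KO. The log2 fold change was 0.02 (SE 0.16, 95% interval -0.35 to 0.38, edgeR adjusted P = 0.970), the narrowest interval among the 10 genes, and -0.14 by total counts.

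**Figure D3:**
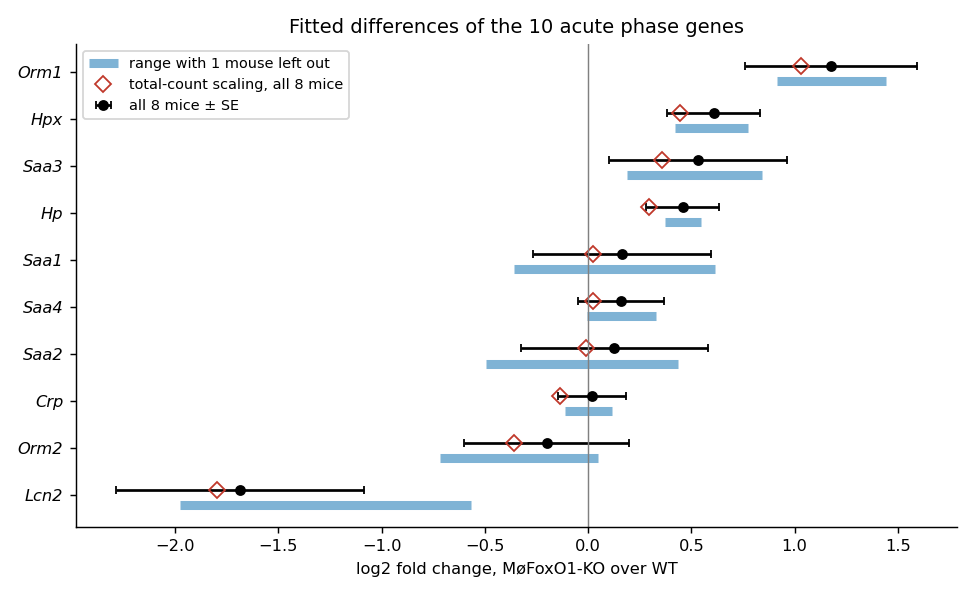
Fitted log2 fold changes of the 10 genes, MøFoxO1-KO over WT, with SE bars (black), the range with 1 mouse left out (blue bands) and the values under scaling by total counts (red diamonds). Orm1 (1.18), Hpx (0.61), Saa3 (0.53), Hp (0.46) and Lcn2 (-1.69) keep their sign in all of these. Saa3 moves to 0.19 without KO29 and Lcn2 to -0.57 without WT23.

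Of the 10 fitted log2 fold changes 8 were above 0, beside 48.3% of all tested genes, and their median was 0.16 beside -0.01 for all tested genes. Scaling by total counts moved the median of all tested genes to -0.17 and that of the 10 genes to 0.02, so that the difference between both medians stayed at 0.18 and 0.19. By this scaling Saa2 and Crp changed sign, to -0.01 and -0.14.

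Per unit of transcript length, Hp was the most abundant of the 10 in WT livers at 6668 ± 1073 TPM (transcripts scaled for length and depth), followed by Hpx at 5339 ± 1018 TPM and Orm1 at 864 ± 402 TPM (SD, n = 4). Saa4 (304 ± 87.4 TPM), Saa1 (279 ± 161 TPM), Crp (183 ± 13.5 TPM), Saa2 (107 ± 47.3 TPM), Orm2 (69.4 ± 26.9 TPM), Saa3 (54.0 ± 25.1 TPM) and Lcn2 (35.7 ± 39.5 TPM) came next (SD, n = 4). Among neighbors in this order, Hpx and Orm1 did not overlap in either genotype, Orm1 and Saa4 and also Saa3 and Lcn2 did not overlap in MøFoxO1-KO livers, and the other neighbors overlapped in both. TPM carry no TMM scaling, and on that scale the MøFoxO1-KO means of Saa1 (246 ± 140), Saa2 (92.4 ± 63.6), Saa4 (276 ± 51.5) and Crp (151 ± 35.8; SD, n = 4 each) were below those of WT livers, unlike their normalized counts. Those of Hp (7279 ± 947), Hpx (6449 ± 1569) and Orm1 (1550 ± 603; SD, n = 4 each) were above those of WT livers. On this scale Hp also overlapped between genotypes, at 6225 TPM in KO26 beside 7646 TPM in WT24.

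Correlations across the 8 mice were computed for all 45 pairs of the 10 genes, and 2 of the 8 pairs chosen for print passed adjustment. Saa1 and Saa2 had r = 0.94 (exact permutation P = 0.000818, adjusted 0.0312) and rho = 0.976 (exact permutation P = 0.000397, adjusted 0.0179) on log2 normalized counts. Without KO29 and WT23, the mice farthest from the median, r was 0.74, and within genotypes it was 0.98 (WT) and 0.97 (MøFoxO1-KO). The transcripts are near copies, and whether shared reads contribute to this value was not tested. Hp and Hpx, which have no such similarity, had r = 0.92 (exact permutation P = 0.00263, adjusted 0.0394) and rho = 0.905 (adjusted 0.0513), with r = 0.64 without KO27 and KO29, 0.78 within WT and 0.85 within MøFoxO1-KO mice.

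The other pairs chosen for print did not pass. Orm1 and Orm2 had r = 0.34 (exact permutation P = 0.422, adjusted 0.637), and Saa1 and Saa3 had r = 0.52 (exact permutation P = 0.197, adjusted 0.437). Saa1 had r = 0.20 with Saa4, 0.51 with Hp, 0.60 with Lcn2 and 0.42 with Orm1. Without KO29 and WT23 these values were -0.21, 0.45, 0.03 and -0.09. A further pair, chosen after its value was seen, went in opposite directions: Saa3 and Crp had r = -0.93 (exact permutation P = 0.00139, adjusted 0.0312), rho = -0.905 (adjusted 0.0513), -0.81 without KO26 and KO29, and -0.98 and -0.96 within WT and MøFoxO1-KO mice. Orm1 and Hpx, also named after their values were seen, passed by rank only (rho = 0.952, exact permutation P adjusted 0.0257; r = 0.86, adjusted 0.0605). For this pair r was 0.98 without KO29 and WT24, 0.47 within WT and 0.97 within MøFoxO1-KO mice.

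**Figure D4:**
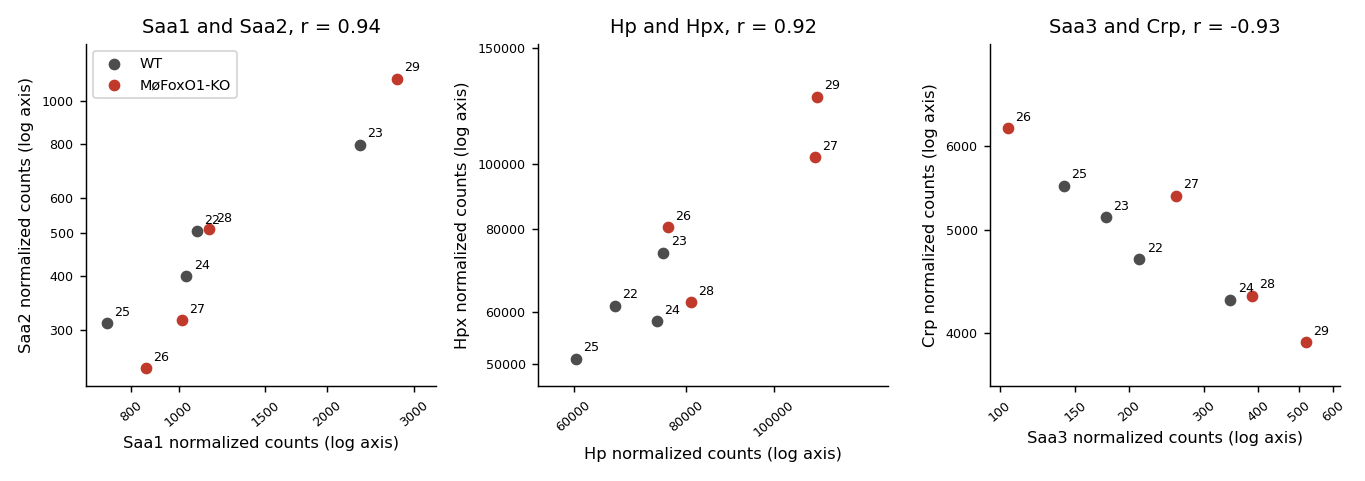
Normalized counts of 3 pairs of the 10 genes in each of the 8 livers (log axes), WT and MøFoxO1-KO mice in different colors and numbered. Saa1 and Saa2 (r = 0.94) and Hp and Hpx (r = 0.92) lie along a rising line over both genotypes, and Saa3 and Crp (r = -0.93) along a falling one.

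Over all tested genes and the 8 mice, the patterns most like Saa1 were those of P2ry14 (r = 0.97), Gm7694 (r = 0.97), Foxa1 (r = 0.96), Apoo (r = 0.95) and Saa2 (r = 0.94), and those most like Hp were Cd48 (r = 0.96), Vta1 (r = 0.96), 1700007L15Rik (r = 0.96), Fpr2 (r = 0.94) and Tmem263 (r = 0.94). Each is the top of 13278 correlations over 8 points and is given as a description. Hpx was 17th in the order for Hp. Fpr2 encodes a formyl peptide receptor to which SAA binds, and Cd48 is a leukocyte surface protein.

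Among 22 other positive acute phase genes, 0 were called, beside 0.188% of all tested genes, and the median log2 fold change was 0.21. Fitted values were above 0 for 13 of the 22 and below 0 for 9, beside 48.3% above 0 over all tested genes. An unadjusted P under 0.05 was reached by 7 of the 22, all higher, beside 16.7% of all tested genes (8.65% higher). The fibrinogen chains Fgb (0.45, SE 0.18, adjusted P = 0.256) and Fgg (0.57, SE 0.19, adjusted P = 0.202) and the inter-α-trypsin inhibitor heavy chain Itih3 (0.81, SE 0.21, adjusted P = 0.129) were among these 7, and none passed in edgeR. Fgl1 (1.33), Lrg1 (0.71), Itih4 (0.59) and Serpina10 (0.37) were the others on the log2 scale.

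Negative acute phase genes, whose transcripts fall when the response is induced, had mostly positive values, 12 of 14 above 0, beside 48.3% of all tested genes. Of the 14 tested, 5 had an unadjusted P under 0.05, all higher, beside 16.7% of all tested genes (8.65% higher). The median log2 fold change of the 14 was 0.31. Apom, the HDL apolipoprotein that carries sphingosine-1-phosphate, rose from 1219 ± 226 to 2881 ± 336 normalized counts (SD, n = 4 each; log2 fold change 1.24, SE 0.16, edgeR adjusted P = 0.0171), below the fold change limit of a call. Its adjusted P was 0.0510 to 0.0798 without WT22, WT25, KO27 or KO29. Apoa1, the main protein of HDL, had 1.07 (SE 0.21, edgeR adjusted P = 0.0765), and Trf (0.69), Igfals (0.69) and Rbp4 (0.42) were the others.

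Of 12 cytokines that induce the response, 8 had too few counts to be tested. Among the 4 tested, 2 were higher at an unadjusted P under 0.05, beside 8.65% of all tested genes. They were Il1b (log2 fold change 1.98, SE 0.68, edgeR adjusted P = 0.204) and Il1a (0.84, SE 0.31, adjusted P = 0.225). Il1b was at 14.1, 14.7, 48.0 and 40.8 normalized counts in WT22 to WT25 and at 45.1, 159, 28.5 and 235 in KO26 to KO29. KO26 and KO28 thus lay within the WT range, and the exact two-sided permutation P for Il1b was 0.143. Il6 had 0 to 3 raw counts in WT and 0 to 6 in MøFoxO1-KO livers, Tnf 1 to 14 and 4 to 23, and Il22 was at 0 in all 8. A difference in these 8 was not detectable at this depth.

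Downstream of the cytokines, 16 receptors and signal transducers were tested. At an unadjusted P under 0.05, 2 were higher and 2 lower, beside 8.65% and 8.06% of all tested genes. The higher ones were Il1rap, the IL-1 receptor accessory chain (0.49, SE 0.12, edgeR adjusted P = 0.121), and Lifr, which pairs with gp130 (0.46, adjusted P = 0.190). The lower ones were Il22ra1 (-2.09, SE 0.56, adjusted P = 0.131), at 46.6 ± 33.1 and 10.9 ± 4.82 normalized counts (SD, n = 4 each), and the TNF receptor gene Tnfrsf1b (-0.36, adjusted P = 0.249).

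Among the transcription factors, Creb3l3 (0.31) was higher and Nfkb2 (-0.46) lower on the log2 scale at an unadjusted P under 0.05, with edgeR adjusted P values of 0.237 and 0.219. Of 10 feedback inhibitors, 1 was higher and 1 lower at an unadjusted P under 0.05, beside 8.65% and 8.06% of all tested genes. Socs1 (1.05, adjusted P = 0.267) was higher and Zfp36, whose protein destabilizes cytokine mRNAs, lower (-0.51, SE 0.14, adjusted P = 0.131). Among 14 tested genes for receptors and heme handling, 1 was higher at an unadjusted P under 0.05, beside 8.65% of all tested genes. This was Fpr2 (2.04, SE 0.51, edgeR adjusted P = 0.123) at 17.6 ± 6.19 and 73.3 ± 48.9 normalized counts (SD, n = 4 each). Median log2 fold changes were -0.13 for the receptors and transducers, -0.15 for the factors, -0.08 for the inhibitors, 0.14 for receptors and heme handling and 0.55 for the 4 cytokines, and by total counts they were -0.29, -0.30, -0.24, -0.03 and 0.39. For the positive and the negative acute phase genes the medians by total counts were 0.07 and 0.14.

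**Figure D5:**
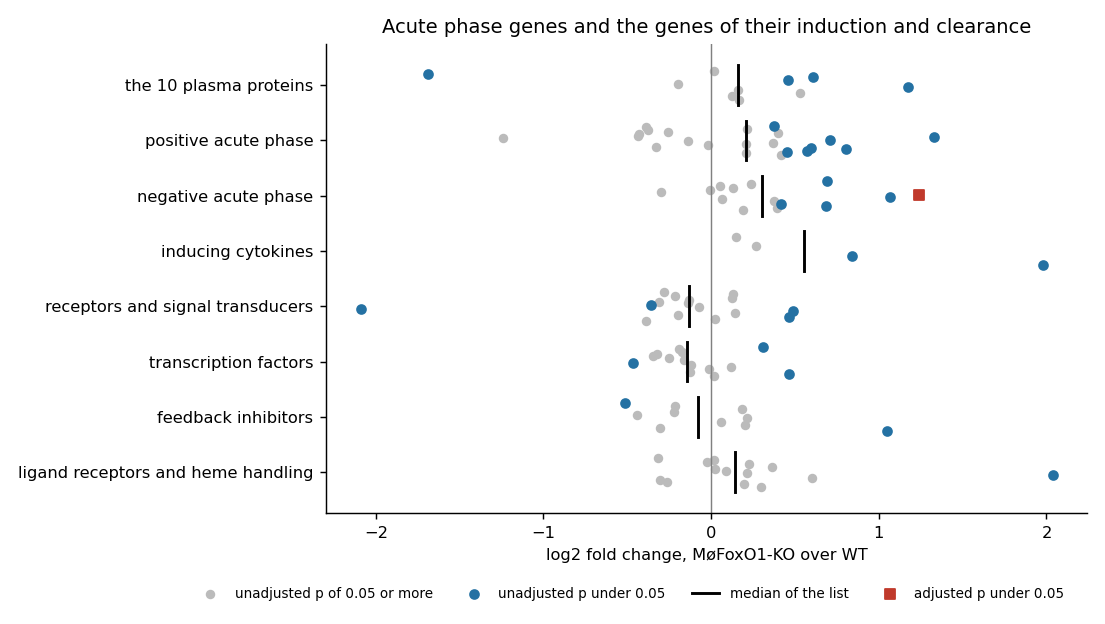
Fitted log2 fold changes, MøFoxO1-KO over WT, of the tested genes of each list (points), with the median of each list as a black line, blue points for an unadjusted P under 0.05 and the red square for Apom, with an adjusted P under 0.05. The 10 plasma proteins (median 0.16) and the negative acute phase genes (median 0.31) both lie mostly above 0, and the receptors (median -0.13) lie on both sides of it.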

How the data were processed

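Polyadenylated RNA of whole liver was sequenced from 8 mice. The authors deposited raw read counts per gene on GRCm38, without normalization; their processing notes name STAR, featureCounts and mm10, with versions and strand setting not given in the sources used here. All 8 count columns were mapped to mice by genotype and number. The table held 46517 genes (46005 with a GENCODE M21 symbol).

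Genes were kept by filterByExpr (minimum count 10, minimum total 15), which left 13278, TMM-scaled and compared in the quasi-likelihood framework of edgeR 4.0.16 (R 4.3.3), without covariates, with Benjamini-Hochberg adjustment. Normalized counts were compared by exact two-sided permutation tests (scipy 1.17.1). TPM used the exon lengths of the table. Scripts were tested on simulated data. Alternatives were DESeq2 1.42.0, limma-voom (limma 3.58.1), other size factors, other filters, a robust fit and leaving out each mouse. Scaling by total counts and the ratios within libraries were added after seeing the data. The 10 genes and all lists were chosen with earlier results of these data known. Named genes are the 10, listed genes called or with an unadjusted P under 0.05 (otherwise the smallest P of a list), the 5 most like Saa1 and Hp, and Foxo1. Orm3 and the pair Saa3 and Crp were named after their values were seen. Protein sequences were not used here, and copies were compared by the longest open reading frames of the GENCODE M21 transcripts. A listed gene that met the rule for named genes is not reported here.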

Additional observations from a re-analysis of the deposited data

Results flagged for a closer look

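Among 96 groups of 4 mice examined (normalized counts of each named gene in each genotype), 7 held a mouse whose gap to its nearest neighbor exceeded Dixon's 95% limit for the share of the group's range, where chance gives about 1 in 20. Of the 10 plasma protein genes, Saa1 was at 2771 in KO29, next to 1153 in the second highest MøFoxO1-KO liver, and Lcn2 was at 1873 in WT23, next to 413 in the second highest WT liver. Macrophage marker Adgre1 was at 143 in WT24, with the next WT liver at 80.6. Creb3l3, a factor of the hepatic acute phase response, was at 7497 in KO27, with the next at 6380. Igfals was low in WT24 (1176, next 1725) and high in KO26 (3631, next 2270). Il1rap was low in WT24 (2205, next 2612).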

How the results depend on the processing

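No paired analysis was made, because the sample labels give no litter or other pairing between mice of the 2 genotypes. Over all alternatives, 0 of the 10 genes were called. Of 172 values of the 10 genes under alternatives, 157 kept their sign and 15 reversed. Saa2 was -0.012 by total counts and -0.043 with limma-voom, Crp -0.14 and -0.0017, and the neutrophil marker Csf3r -0.15 by total counts. With single mice left out, log2 fold changes ran from -0.36 to 0.61 for Saa1, -0.49 to 0.44 for Saa2, -0.0057 to 0.33 for Saa4, -0.72 to 0.048 for Orm2, -0.11 to 0.11 for Crp and -0.30 to 0.50 for Csf3r. Genes called over the whole table numbered 25, and 144 with DESeq2, 13 with limma-voom, 120 without a filter, 39 without the fold change limit and 3 (without WT25) to 82 (without KO28) with single mice left out. Members whose groups did not overlap numbered 1, and 0 with upper-quartile scaling, total counts or no filter, and 1 to 3 with single mice left out (3 without KO28). Over all tested genes such groups numbered 1289 of 13278, and 1811 by total counts. With single mice left out they rose to between 1534 (without KO27) and 2256 of 13544 (without KO26), with 2172 of 13490 without KO28. The cause of these differences was not tested. Apom had an adjusted P of 0.0510 to 0.0798 without WT22, WT25, KO27 or KO29. At this depth most inducing cytokines had too few counts for a test.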

Other observations

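Marco, a scavenger receptor gene of resident macrophages, had the largest fitted difference among the macrophage markers. It was at 18.7, 4.92, 81.2 and 49.8 normalized counts in WT22 to WT25 and at 737, 2712, 66.4 and 2119 in KO26 to KO29 (log2 fold change 5.18, SE 1.06, edgeR adjusted P = 0.0870), so that KO28 lay within the WT range, as it did for Orm1 and Hpx. Timd4, another gene of resident macrophages, was at 53.2 ± 5.24 in WT and 226 ± 138 in MøFoxO1-KO livers (SD, n = 4 each; log2 fold change 2.08, edgeR adjusted P = 0.0968). Both were past an adjusted P of 0.05 with DESeq2, without a filter on low counts and without KO28.

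Of 8 hepatocyte markers, 2 were higher at an unadjusted P under 0.05, beside 8.65% of all tested genes (16.7% in either direction). They were Asgr1 (log2 fold change 0.52, edgeR adjusted P = 0.145) and Serpina1a (0.90, adjusted P = 0.102). Of 5 red cell markers tested, Alas2 alone had an unadjusted P under 0.05 (1.40, edgeR adjusted P = 0.244). It was 0.79 without KO26, while the other 4 had fitted values below 0 and the median of the 5 was -0.66. Of the neutrophil, adipocyte and cholangiocyte markers tested none had an unadjusted P under 0.05, with the smallest P in Csf3r (0.05, adjusted P = 0.970), Fabp4 (0.20, adjusted P = 0.709) and Spp1 (-0.23, adjusted P = 0.514).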
